A study of Homo sapiens with 6 samples.

Results

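The genes described here are 10 genes of the Hippo pathway, taken by gene name from the 58676 genes of the deposited table. They are the coactivators YAP1 and WWTR1 (the gene of TAZ), the DNA-binding partners TEAD1, TEAD2, TEAD3 and TEAD4, the kinases LATS1 and LATS2, and AMOTL2 and ANKRD1, which are known targets of YAP and TAZ. Each name matched 1 row, and all 10 genes passed the filter on low values. RNA sequencing compared NS control with BCL9 KD in DCIS.COM, an established human breast cell line of the basal type that is used as a model of ductal carcinoma in situ. NS control cells carry a PLKO.1 vector with a non-silencing shRNA, and BCL9 KD cells carry the same vector with 1 shRNA sequence against BCL9, a coactivator of β-catenin. Both vectors were delivered by lentivirus, both groups were grown in the same medium, and each group has 3 samples from separate flasks. Separate transductions are not described, so p-values may measure only the spread between flasks. The BCL9 KD cells also retain BCL9 transcript, as given below.

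The Hippo pathway limits tissue growth through a chain of kinases. When the chain is active, LATS1 and LATS2 phosphorylate YAP and TAZ, which then stay in the cytoplasm or are degraded. When it is inactive, YAP and TAZ enter the nucleus and act through TEAD proteins, since they do not bind DNA themselves. In mammary epithelium the pathway responds to cell contact, cell shape and matrix stiffness, and high YAP or TAZ activity is known from breast tumors of the basal type. The step between LATS and YAP is set by phosphorylation, so mRNA levels do not measure it, while the mRNA of target genes such as ANKRD1 is often used as a readout of YAP and TAZ.

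The samples hold between 15222452 and 26949026 reads counted on genes. Levels are given in FPKM, the reads counted on a gene scaled to its length and to the total reads of the library, so that levels of different genes can be compared. Of the 13745 genes with a mean of at least 0.5 FPKM, 807 (5.87%) passed limma's test on log2(FPKM + 0.5) at a Benjamini-Hochberg adjusted p-value under 0.05, 407 (2.96%) higher and 400 (2.91%) lower in BCL9 KD, and "called" below means past this threshold. BCL9 itself had a mean of 5.94 FPKM (SD 0.522, n = 3) in NS control against 2.74 FPKM (SD 0.139, n = 3) in BCL9 KD (log2 difference −0.99, limma adjusted p = 0.00773). The count of all genes called was 12, 13 and 5 without NS control replicate 2, BCL9 KD replicate 2 and BCL9 KD replicate 3, 1712 without NS control replicate 3, and 721 and 736 without NS control replicate 1 and BCL9 KD replicate 1. BCL9 was not called in the first 3 of these fits (limma adjusted p up to 0.0700), where its log2 differences were −0.956, −0.999 and −0.955. All 6 basal epithelial markers were present, with means from 16.1 to 566 FPKM, and their summed level was 1113 to 1279 FPKM in NS control and 1144 to 1212 FPKM in BCL9 KD, with 0 of 6 called by limma or voom and 2 at an unadjusted p-value under 0.05 with limma. The 4 luminal markers summed to 10.4 to 12.3 FPKM with PGR at 0, the 4 fibroblast markers to at most 0.749 FPKM with COL3A1 at 0, and the 3 immune markers to at most 0.0583 FPKM. Of the 3 endothelial markers, whose sum was 1.75 to 2.34 FPKM in NS control and 3.15 to 3.95 FPKM in BCL9 KD, PECAM1 was called higher (limma adjusted p = 0.0477), while CDH5 and VWF had at most 5 reads in any sample. The part of PECAM1 in the results below was not tested. NS control replicate 1 stood apart from the other samples. Its values were set against each gene's mean over all samples, both groups together. The root mean square of this deviation was 0.379 on the log2 scale, against 0.244 to 0.280 in the others. The deviation, which includes the difference between the groups, correlated with the GC content of transcripts at 0.480, against −0.227 to 0.0452 in the others. Differences of the Hippo genes are therefore also given without this sample where it moves them by over 1.5 times.

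Of the 10 Hippo genes, 2 were called, AMOTL2 and ANKRD1, and both were lower in BCL9 KD. The mean FPKM of AMOTL2 fell by 34.1% and that of ANKRD1 fell by 34.3%. In bulk RNA, fewer cells that express a gene and less of its RNA per cell cannot be told apart. The coactivators, the TEADs and the LATS kinases were not called in either direction, and 0 of these 8 genes had an unadjusted p-value under 0.05 with limma or was called by voom on recovered reads. The 20% called stand beside 5.87% of all genes tested. In 4 of the 10 genes (40%) the ranges of the groups were apart, which was also the case for 34.2% of all genes tested. The median log2 difference of the 10 genes was −0.13, with 8 below 0, against a median of 0.04 and 44.6% below 0 over all genes.

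**Figure D1:**
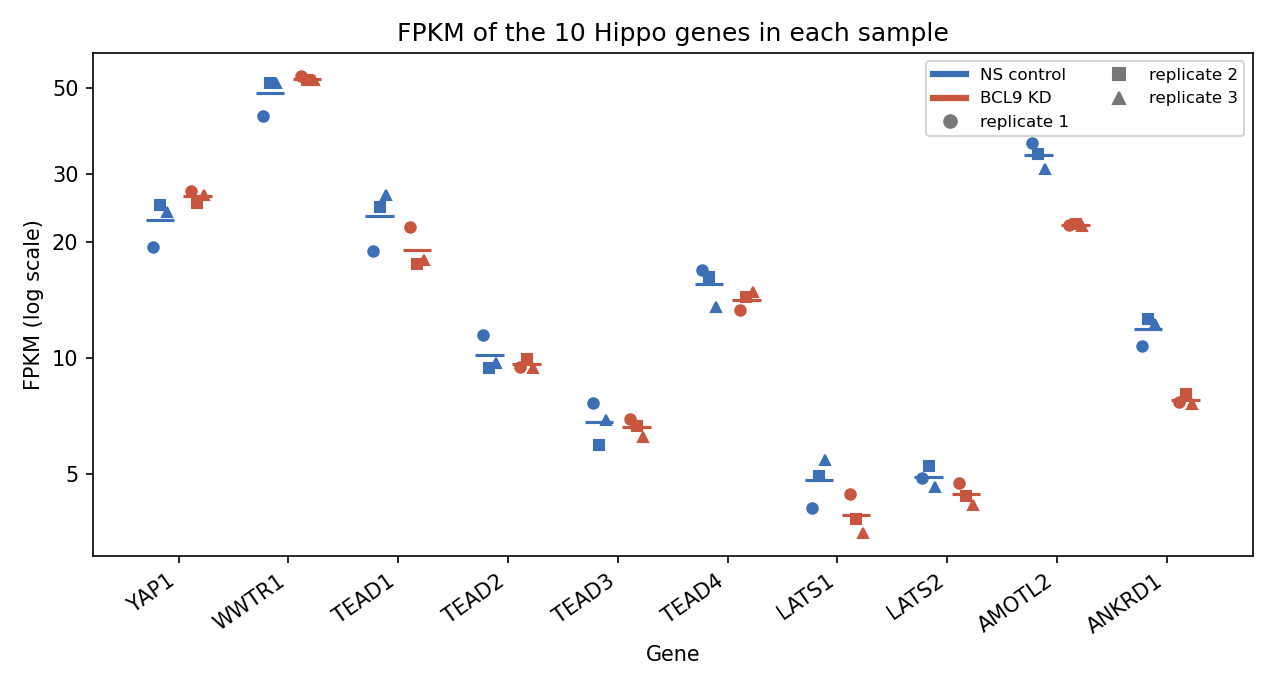
FPKM on a log axis for each of the 10 Hippo genes, with NS control in blue, BCL9 KD in red, a symbol for each replicate and a line at each group mean (n = 3). AMOTL2 and ANKRD1 are the genes with all BCL9 KD values below all NS control values, and in YAP1 and WWTR1 all BCL9 KD values lie above.

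YAP1 and WWTR1 encode the paralogous coactivators that the pathway controls. YAP1 (ENSG00000137693, chromosome 11 of GRCh38 from 102110461 to 102233423, plus strand) was at 19.4, 25.0 and 23.9 FPKM in the NS control samples, in the order of their replicate numbers, and at 27.1, 25.2 and 26.4 FPKM in BCL9 KD. The BCL9 KD values all lay above the NS control values, by a narrow margin to NS control replicate 2. The log2 difference was 0.21 (95% interval −0.04 to 0.46, limma adjusted p = 0.243), and it was 0.10 without NS control replicate 1. WWTR1 (ENSG00000018408, chromosome 3 from 149517235 to 149736714, minus strand) was at 42.5, 51.8 and 51.5 FPKM in NS control and at 53.9, 52.6 and 52.4 FPKM in BCL9 KD. Here too the groups did not overlap, and NS control replicate 1 was again the low sample. The log2 difference was 0.13 (95% interval −0.09 to 0.34, limma adjusted p = 0.385), and it was 0.04 without that sample.

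TAZ was the more abundant coactivator transcript in every sample. WWTR1 made up 68.1% ± 0.611 (SD, n = 3) of the summed FPKM of YAP1 and WWTR1 in NS control and 66.9% ± 0.637 (SD, n = 3) in BCL9 KD, and the samples overlapped (two-sided exact permutation test, p = 0.2, Benjamini-Hochberg adjusted p = 0.7 over 6 shares). The mix of the coactivators thus varied little between samples, including NS control replicate 1 at 68.7%, where both genes had their lowest value. The sum itself was 61.9, 76.8 and 75.4 FPKM in NS control and 81.0, 77.8 and 78.8 FPKM in BCL9 KD. These sums did not overlap (two-sided exact permutation test, p = 0.1, the lowest value that 3 samples against 3 can give), and they were chosen after the values of the genes were seen.

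The TEAD genes encode the transcription factors that carry YAP and TAZ to DNA, and all 4 were expressed. TEAD1 (ENSG00000187079, chromosome 11 from 12674591 to 12944483, plus strand) was the highest, at 18.9, 24.6 and 26.5 FPKM in NS control and 21.8, 17.5 and 18.0 FPKM in BCL9 KD. The groups overlapped only through NS control replicate 1, which was lower than BCL9 KD replicate 1. The log2 difference of TEAD1 was −0.28 (95% interval −0.62 to 0.07, limma adjusted p = 0.260), the widest interval of the 10 genes, and it was −0.42 without NS control replicate 1 (limma adjusted p = 0.0746) and −0.18 without NS control replicate 3 (limma adjusted p = 0.428). TEAD4 (ENSG00000197905, chromosome 12 from 2959330 to 3040673, plus strand) was at 16.9, 16.2 and 13.6 FPKM in NS control and at 13.3, 14.4 and 14.8 FPKM in BCL9 KD, with a log2 difference of −0.13 (95% interval −0.36 to 0.11, limma adjusted p = 0.431). TEAD4 values of the groups overlapped, with NS control replicate 3 inside the range of BCL9 KD. The difference was −0.07 without NS control replicate 1 and −0.22 without NS control replicate 3 (limma adjusted p = 0.111).

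TEAD2 and TEAD3 were the lower pair. TEAD2 (ENSG00000074219, chromosome 19 from 49340595 to 49362457, minus strand) was at 11.4, 9.40 and 9.68 FPKM in NS control and at 9.47, 9.96 and 9.43 FPKM in BCL9 KD. Its log2 difference was −0.07 (95% interval −0.29 to 0.14, limma adjusted p = 0.629). TEAD2 overlaps CD37 on the other strand, which held a mean of 110 reads against 587 for TEAD2. The use of strand in the counting is not given in the sources used here, so reads in the overlap cannot be told apart. TEAD3 (ENSG00000007866, chromosome 6 from 35473597 to 35497076, minus strand) was at 7.62, 5.94 and 6.90 FPKM in NS control and at 6.93, 6.68 and 6.22 FPKM in BCL9 KD. Its log2 difference was −0.04 (95% interval −0.28 to 0.21, limma adjusted p = 0.840). In both genes, NS control replicate 1 was the highest of the 6 samples, and without it the differences were 0.01 for TEAD2 and 0.04 for TEAD3. Without NS control replicate 2 they were −0.12 for TEAD2 and −0.13 for TEAD3.

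TEAD1 made up 41.7% ± 6.39 (SD, n = 3) of the summed TEAD FPKM in NS control and 38.5% ± 3.38 (SD, n = 3) in BCL9 KD. TEAD4 followed with 27.8% and 28.7%, TEAD2 with 18.2% and 19.5%, and TEAD3 with 12.2% and 13.4%. All 4 shares overlapped between the groups (two-sided exact permutation tests, p from 0.4 to 0.7, Benjamini-Hochberg adjusted p = 0.7 for each over 6 shares). The share of TEAD1 ranged from 34.5% to 46.8% among the NS control samples alone, so the spread between replicates was larger than the difference between the groups. The summed TEAD level was 54.9, 56.2 and 56.6 FPKM in NS control and 51.5, 48.5 and 48.4 FPKM in BCL9 KD. Unlike the single TEAD genes, the sums did not overlap (55.9 ± 0.924 against 49.5 ± 1.78 FPKM, SD, n = 3, two-sided exact permutation test, p = 0.1), and this sum too was chosen after the values of its genes were seen.

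**Figure D2:**
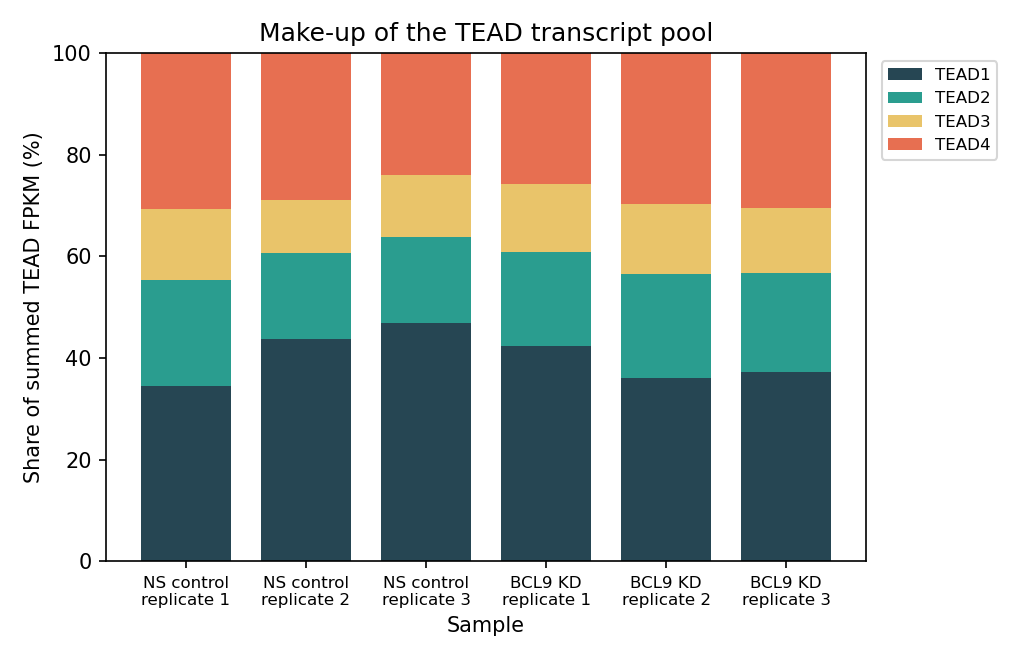
Share of each TEAD gene in the summed FPKM of TEAD1 to TEAD4 as stacked bars from 0 to 100%, 1 bar for each of the 6 samples. TEAD1 is the largest part in every sample, and its share is lowest in NS control replicate 1 (34.5%) and highest in NS control replicate 3 (46.8%).

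LATS1 and LATS2 encode the kinases that phosphorylate YAP and TAZ, and LATS2 is itself a known YAP and TAZ target. They had the lowest levels of the 10 genes. LATS1 (ENSG00000131023, chromosome 6 from 149658153 to 149718256, minus strand) was at 4.07, 4.95 and 5.43 FPKM in NS control and at 4.44, 3.81 and 3.51 FPKM in BCL9 KD. NS control replicate 1 was the only control value inside the range of BCL9 KD. The log2 difference of LATS1 was −0.26 (95% interval −0.57 to 0.04, limma adjusted p = 0.236), and it was −0.37 without NS control replicate 1 (limma adjusted p = 0.0968) and −0.18 without NS control replicate 3 (limma adjusted p = 0.378). When each sample was corrected for the GC content of transcripts it was −0.35 (limma adjusted p = 0.0494), in a fit that called 11.5% of all genes tested. LATS2 (ENSG00000150457, chromosome 13 from 20973032 to 21061547, minus strand) was at 4.89, 5.24 and 4.63 FPKM in NS control and at 4.75, 4.38 and 4.17 FPKM in BCL9 KD. The groups overlapped at a single pair of samples, and the log2 difference was −0.14 (95% interval −0.34 to 0.07, limma adjusted p = 0.341). LATS2 made up 50.7% of the summed LATS FPKM in NS control and 53.1% in BCL9 KD, with overlapping samples (two-sided exact permutation test, p = 0.6, Benjamini-Hochberg adjusted p = 0.7). The summed LATS level was 8.96, 10.2 and 10.1 FPKM in NS control and 9.19, 8.19 and 7.67 FPKM in BCL9 KD. Unlike the sums of the coactivators and of the TEADs, these sums overlapped (two-sided exact permutation test, p = 0.2).

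AMOTL2 encodes angiomotin-like 2, a scaffold of tight junctions that binds YAP and TAZ and holds them outside the nucleus, and its gene is in turn a known target of theirs. AMOTL2 (ENSG00000114019, chromosome 3 from 134355874 to 134375479, minus strand) was at 36.0, 33.9 and 30.9 FPKM in NS control and at 22.1, 22.3 and 22.0 FPKM in BCL9 KD. The BCL9 KD values lay within a narrow band, well below the lowest control value. The mean fell by 34.1%, from 33.6 ± 2.58 to 22.1 ± 0.144 FPKM (SD, n = 3), a log2 difference of −0.59 (SE 0.0752, 95% interval −0.77 to −0.41, limma adjusted p = 0.0152). The values rest on 2061 to 4895 reads per sample. The call was lost without NS control replicate 2 (limma adjusted p = 0.0905), BCL9 KD replicate 2 (0.105) or BCL9 KD replicate 3 (0.111), while the log2 difference stayed between −0.65 and −0.54 in all left-out fits.

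ANKRD1 encodes an ankyrin repeat protein also known as CARP and is among the genes most often measured to follow YAP and TAZ. ANKRD1 (ENSG00000148677, chromosome 10 from 90912096 to 90921276, minus strand) was at 10.7, 12.6 and 12.2 FPKM in NS control and at 7.69, 8.08 and 7.58 FPKM in BCL9 KD. As in AMOTL2, all BCL9 KD samples were below all controls. The mean fell by 34.3%, from 11.8 ± 0.974 to 7.78 ± 0.263 FPKM (SD, n = 3), a log2 difference of −0.57 (SE 0.0832, 95% interval −0.77 to −0.38, limma adjusted p = 0.0202). ANKRD1 is a short transcript, and its values rest on 235 to 504 reads per sample. The call was lost in the same 3 left-out fits (limma adjusted p = 0.104, 0.117 and 0.127) and without the filter on low values (limma adjusted p = 0.0524), while the log2 difference was between −0.64 and −0.53 in all left-out fits and −0.57 without the filter.

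The 5′ flanks of AMOTL2 and ANKRD1 are shown because they are the 2 genes called and both contain the core letters CATTCC of the TEAD motif. Windows of RefSeq promoters (GRCh38.p14, 250 bases before and 50 bases after a transcription start) were at hand for 8 of the 10 genes. TEAD1 and TEAD4 had none. The 250 bases before the start are printed in the direction of the gene, with CATTCC or its reverse complement GGAATG in capitals. The AMOTL2 flank belongs to the second of its 2 starts and lies at chr3:134374448-134374697 on the minus strand, and the ANKRD1 flank lies at chr10:90921088-90921337 on the minus strand. By the gene coordinates given above, all of the AMOTL2 flank lies within the annotated gene, before the start used here. The same holds for part of the ANKRD1 flank, with the match nearer to its start.
AMOTL2: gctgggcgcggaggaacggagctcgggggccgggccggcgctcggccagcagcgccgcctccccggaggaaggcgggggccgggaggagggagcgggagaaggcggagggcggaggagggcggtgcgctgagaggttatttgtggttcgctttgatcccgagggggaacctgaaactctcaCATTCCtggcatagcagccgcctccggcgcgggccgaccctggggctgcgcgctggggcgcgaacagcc
ANKRD1: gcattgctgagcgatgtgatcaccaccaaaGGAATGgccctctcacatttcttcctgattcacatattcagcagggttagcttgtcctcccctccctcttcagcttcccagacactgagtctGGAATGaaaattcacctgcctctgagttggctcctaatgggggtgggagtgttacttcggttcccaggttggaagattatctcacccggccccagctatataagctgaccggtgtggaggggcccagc

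Counted from the transcription start, the AMOTL2 match lies at −69 to −64, and the ANKRD1 matches lie at −220 to −215 and −128 to −123. Both strands were searched, and 4 of the 8 genes had a match, since YAP1 (−162 to −157) and LATS2 (10 to 15, within the transcript) had one as well. The other AMOTL2 start and the windows of WWTR1, TEAD2, TEAD3 and LATS1 had none. Of all 35116 promoter windows 14% hold the letters, and 16.7% of the 27305 genes have at least 1 such window. The 5 matches are set side by side below, each turned so that CATTCC reads forward, with 10 bases on either side.
AMOTL2 (−69): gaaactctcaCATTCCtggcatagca
ANKRD1 (−220): gtgagagggcCATTCCtttggtggtg
ANKRD1 (−128): ggtgaattttCATTCCagactcagtg
YAP1 (−162): caagttgctaCATTCCtgcacactcc
LATS2 (10): acattgttggCATTCCacgggcgtca

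YAP1 and LATS2 hold the letters and were not called. The motif of TCF and LEF factors, the DNA-binding partners of β-catenin, was searched as CTTTGAT and its reverse complement ATCAAAG, which 2.62% of all windows contain, and 3.18% of all genes in at least 1 window. It occurred in 1 of the 8 genes, in the AMOTL2 flank printed above at −101 to −95. The STAT motif TTCNNNGAA, which 7.66% of all windows and 9.38% of all genes contain, occurred in 0 of the 8. A match of letters is a description of the window and does not show that a factor binds there.

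**Figure D3:**
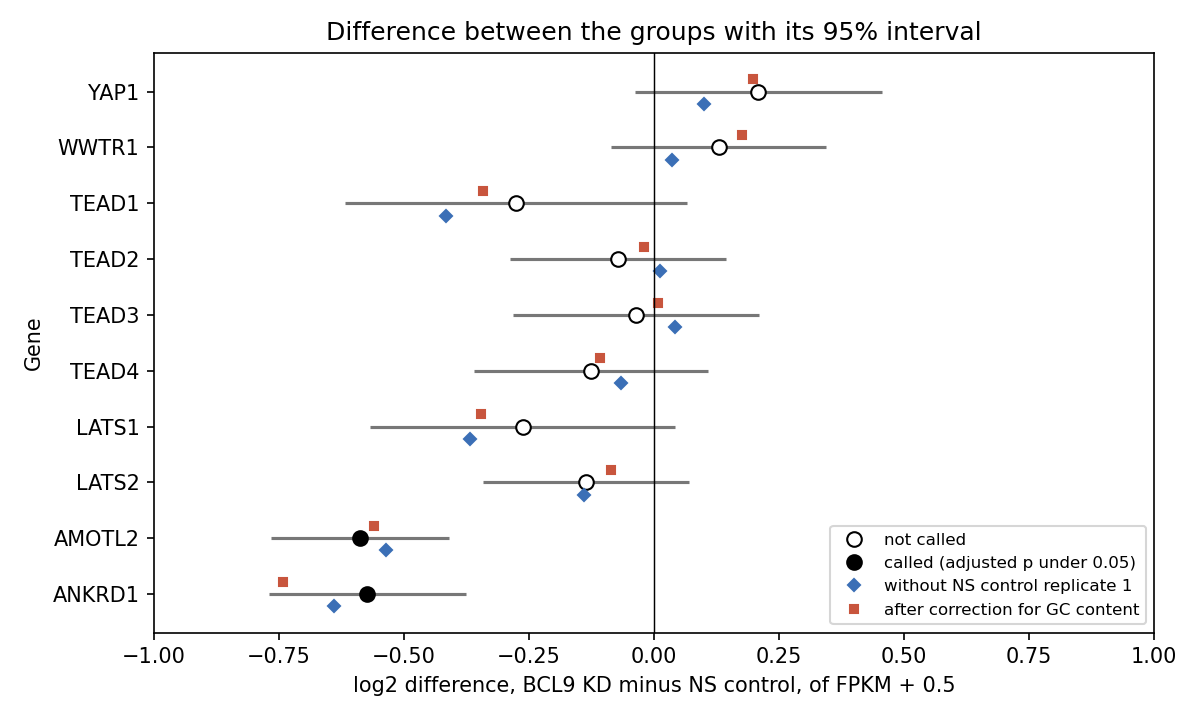
The log2 difference of FPKM + 0.5, BCL9 KD minus NS control, for the 10 Hippo genes as circles with limma's 95% interval (n = 3 per group, filled where called), with diamonds for the fit without NS control replicate 1 and squares for the fit after GC correction. The intervals of AMOTL2 and ANKRD1 lie below 0 and those of the other 8 genes include 0.

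The order of the levels was nearly the same in both groups. In NS control, WWTR1 was followed by AMOTL2, TEAD1, YAP1, TEAD4, ANKRD1, TEAD2, TEAD3, LATS2 and LATS1. Neighbours in this order did not overlap over their samples except TEAD1 with YAP1, ANKRD1 with TEAD2, and LATS2 with LATS1. In BCL9 KD, YAP1 stood above AMOTL2 and TEAD1, and TEAD2 stood above ANKRD1, and LATS2 with LATS1 was the only overlapping pair of neighbours. Among all genes tested, mean levels ran from the 94.7th percentile for WWTR1 to the 48.5th percentile for LATS1, with YAP1 at 87.8 and TEAD1 at 85.9.

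Within NS control, the position of replicate 1 followed the GC content of the genes. In the 5 genes with a transcript GC content under 53% (ANKRD1, LATS1, TEAD1, YAP1 and WWTR1), replicate 1 was the lowest of the 3 controls each time. In the 5 genes above 58% it was the highest control in 4 (TEAD2, TEAD3, AMOTL2 and TEAD4) and in the middle in LATS2. On the log2 scale, replicate 1 differed from the mean of the other controls by −0.42 in TEAD1 and by 0.25 in TEAD2. Over the 10 genes, Pearson's r between GC content and this difference was 0.871, a description over genes of the same libraries. AMOTL2 and ANKRD1 differ widely in GC content, at 63.0% and 42.1%, and both were called without NS control replicate 1 (log2 difference −0.54, limma adjusted p = 0.0191, and −0.64, limma adjusted p = 0.0147) and after GC correction (−0.56, limma adjusted p = 0.00495, and −0.74, limma adjusted p = 0.00691).

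**Figure D4:**
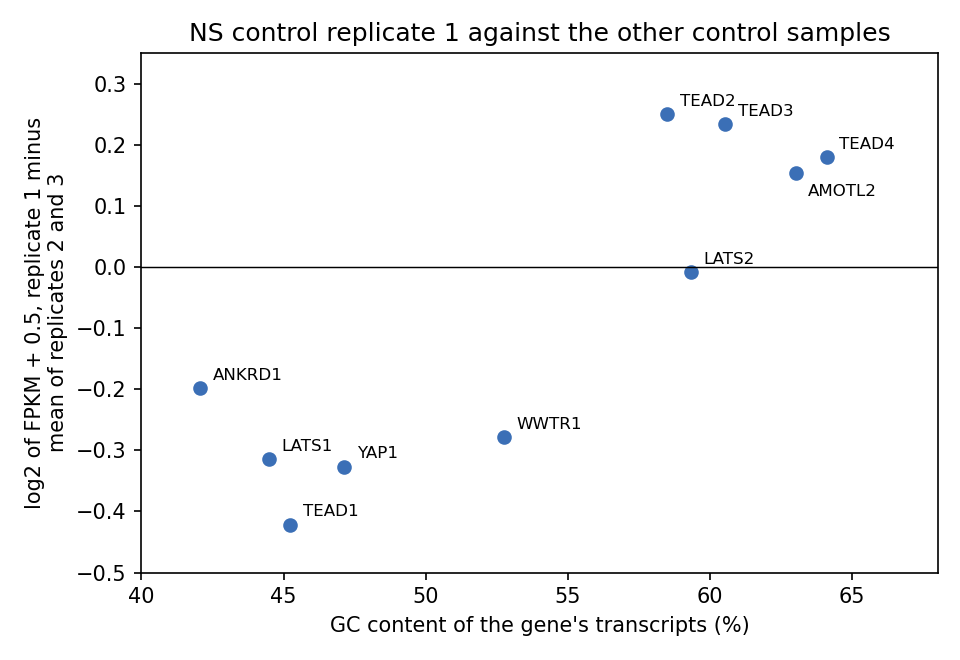
Difference of log2(FPKM + 0.5) between NS control replicate 1 and the mean of NS control replicates 2 and 3 against the GC content of each gene's transcripts in percent, with 1 point for each of the 10 Hippo genes. The 5 genes under 53% GC lie below 0, and of the 5 genes above 58% GC all but LATS2 lie above 0.

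The rest of the pathway was described with a list of 41 further genes, of which 38 were tested and FAT4, DCHS1 and VGLL1 were not. WWC1, AMOT and PTPN14 fell in BCL9 KD, and 0 were called higher by limma or by voom, with 3 higher at an unadjusted p-value under 0.05 in both. These 3 of 38 are 7.89%, beside 5.87% of all genes called and 2.91% called lower. The list's median log2 difference was −0.09, with 23 of 38 below 0. In 19 genes (50%) the groups did not overlap, 14 with BCL9 KD below and 5 above, beside 34.2% of all genes. Without NS control replicate 2, BCL9 KD replicate 2 or BCL9 KD replicate 3 none of WWC1, AMOT and PTPN14 was called, with 0 of the list called in each of these fits, and without NS control replicate 3 the count was 7. Over all left-out fits the log2 difference was between −0.67 and −0.55 for WWC1, −0.69 and −0.57 for AMOT, and −0.71 and −0.59 for PTPN14. With no filter on low values AMOT and PTPN14 were not called (limma adjusted p = 0.0761 and 0.0577), with the log2 differences given below.

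By role, the upstream kinases and their activators had 1 of 15 genes called (6.67%), beside 5.87% of all genes. This was WWC1, which encodes KIBRA, an activator of the kinases, at 16.5, 16.9 and 14.2 FPKM in NS control and 10.2, 10.2 and 10.4 FPKM in BCL9 KD (log2 difference −0.60, 95% interval −0.80 to −0.40, limma adjusted p = 0.0187). The MST kinases and NF2 (merlin) were not called, with log2 differences of 0.20 for STK3, −0.01 for STK4 and −0.02 for NF2, and their groups overlapped. The largest positive differences of the list were in STK38L, an NDR kinase related to LATS (0.51, limma adjusted p = 0.166), and TAOK1, which phosphorylates the MST kinases (0.32, limma adjusted p = 0.423). In both, NS control replicate 1 was the lowest sample, at 1.84 FPKM for STK38L and 4.50 FPKM for TAOK1, and without it the differences were 0.28 and 0.03. Without NS control replicate 3 they were 0.71 for STK38L, which was then called (limma adjusted p = 0.0459), and 0.54 for TAOK1.

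Of 11 junction, polarity and scaffold genes tested, 2 (18.2%) were called, beside 5.87% of all genes. AMOT, the angiomotin that gave the family of AMOTL2 its name, was at 3.59, 4.09 and 3.37 FPKM in NS control and 2.31, 2.24 and 2.02 FPKM in BCL9 KD (log2 difference −0.64, 95% interval −0.88 to −0.39, limma adjusted p = 0.0274). PTPN14, a phosphatase that binds YAP, was at 34.4, 36.5 and 31.7 FPKM in NS control and 24.1, 20.5 and 21.0 FPKM in BCL9 KD (log2 difference −0.63, 95% interval −0.85 to −0.42, limma adjusted p = 0.0191). No BCL9 KD sample of either gene reached the lowest control. AMOTL1, the remaining angiomotin, was not called, at 21.0 ± 2.13 FPKM in NS control and 16.0 ± 1.16 FPKM in BCL9 KD (SD, n = 3, log2 difference −0.38, limma adjusted p = 0.0657), and it is named after its values were seen. Among 7 restraints on the kinases, 2 TEAD cofactors that compete with YAP and TAZ, and 3 genes of YAP and TAZ degradation, limma and voom called 0 (2 and 4 at an unadjusted p-value under 0.05), and all 12 of their differences lay between −0.36 and 0.27.

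The second list holds 19 known YAP and TAZ targets other than the 10 genes, with PTPN14 on both lists. All 19 were tested and 7 (36.8%) were called, beside 5.87% of all genes, with 5 lower and 2 higher in BCL9 KD. The median log2 difference was −0.15, with 12 of 19 below 0. In 11 genes (57.9%) the groups did not overlap, 7 with BCL9 KD below and 4 above, beside 34.2% of all genes. The count of called targets was 1, 0 and 0 without NS control replicate 2, BCL9 KD replicate 2 and BCL9 KD replicate 3, and 7, 7 and 8 in the other left-out fits.

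The targets that fell include the matricellular proteins that are most used as YAP and TAZ readouts. CTGF, now named CCN2, was at 41.6, 39.9 and 38.1 FPKM in NS control and 22.8, 26.3 and 26.2 FPKM in BCL9 KD (log2 difference −0.66, 95% interval −0.85 to −0.47, limma adjusted p = 0.0136). CYR61, now named CCN1, was at 72.3, 69.7 and 68.3 FPKM in NS control and 43.1, 51.6 and 51.4 FPKM in BCL9 KD (log2 difference −0.53, limma adjusted p = 0.0290). In both genes BCL9 KD replicate 1 was the lowest of the 6 samples. AXL, a receptor tyrosine kinase, was at 55.1 ± 6.21 FPKM in NS control and 37.7 ± 3.23 FPKM in BCL9 KD (SD, n = 3, log2 difference −0.54, limma adjusted p = 0.0387). Its call was also lost without NS control replicate 1 (log2 difference −0.46, limma adjusted p = 0.0512) and under median-of-ratios scaling (log2 difference −0.58, limma adjusted p = 0.0539). DOCK5, an exchange factor for Rac, was at 9.20 ± 0.795 and 6.15 ± 0.676 FPKM (SD, n = 3, log2 difference −0.55, limma adjusted p = 0.0374), and PTPN14 is given above. CYR61, AXL and DOCK5 were not called without the trend (limma adjusted p = 0.0523, 0.0633 and 0.0563) or with no filter on low values (limma adjusted p = 0.0762, 0.102 and 0.0947), with the same log2 differences as above in both fits.

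The 2 targets called higher were NT5E and IGFBP3. NT5E, the gene of the ectonucleotidase CD73, was at 4.06, 5.39 and 4.48 FPKM in NS control and 9.77, 11.1 and 11.8 FPKM in BCL9 KD. The log2 difference of NT5E was the largest of either list (log2 difference 1.15, 95% interval 0.87 to 1.44, limma adjusted p = 0.00977). IGFBP3, a binding protein of insulin-like growth factors, was at 21.2, 19.4 and 18.7 FPKM in NS control and 32.4, 32.0 and 32.5 FPKM in BCL9 KD (log2 difference 0.70, 95% interval 0.53 to 0.86, limma adjusted p = 0.00942). GADD45A, a stress-induced gene, was not called, at 6.78 ± 0.424 FPKM in NS control and 11.0 ± 2.24 FPKM in BCL9 KD (SD, n = 3, log2 difference 0.64, limma adjusted p = 0.0541), with all BCL9 KD values above, and it too is named after its values were seen. The called targets thus lay on both sides of 0, and ANKRD1, AMOTL2, CTGF and CYR61 were on the lower side. Of the 19 targets, 12 were not called.

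**Figure D5:**
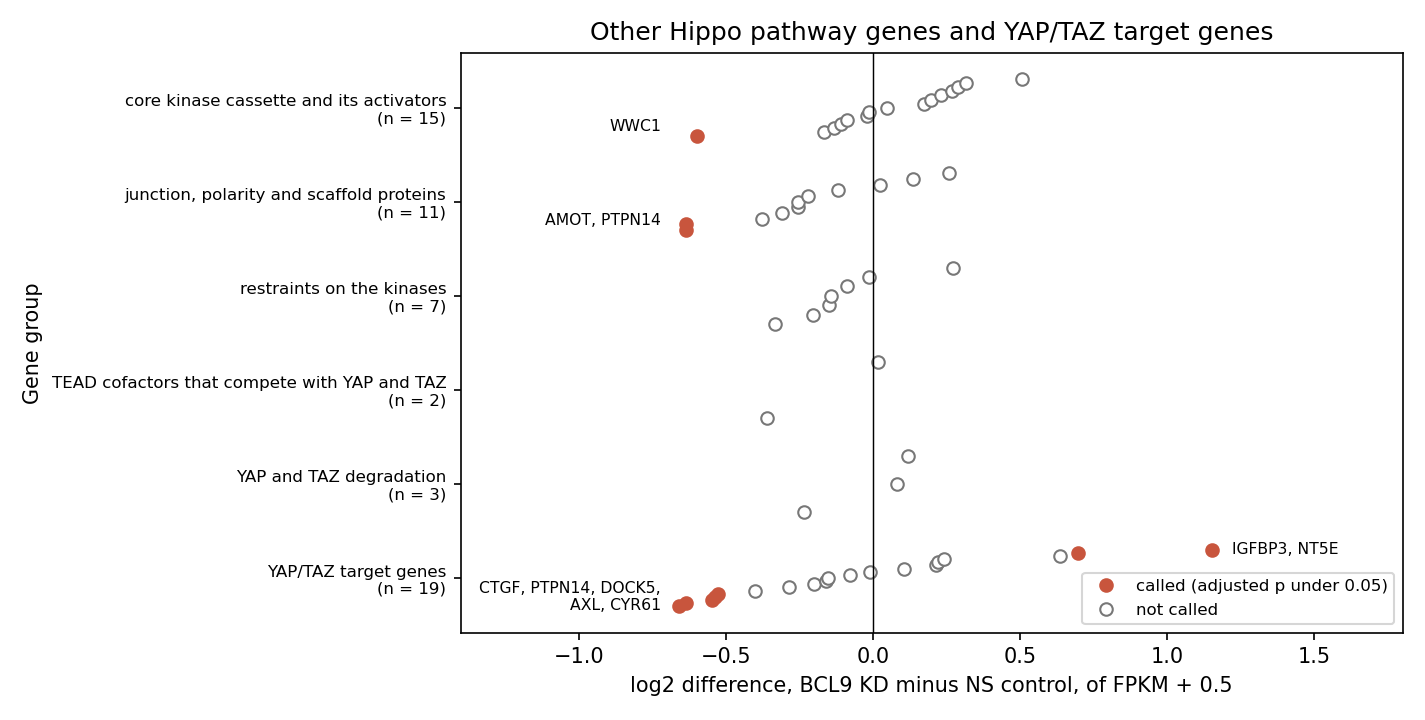
The log2 difference of FPKM + 0.5, BCL9 KD minus NS control, for the 38 other pathway genes in 5 role groups and the 19 target genes, 1 point a gene, red where called (limma adjusted p under 0.05). WWC1, AMOT and PTPN14 are the called pathway genes, all below 0, and the called targets lie on both sides of 0.

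The genes whose pattern over the 6 samples was most like that of the called Hippo genes were listed from 11080 protein-coding genes outside the lists, by Pearson's r of log2(FPKM + 0.5). For AMOTL2 they were PTDSS1 (r = 0.999), at 21.2 FPKM in NS control and 13.4 FPKM in BCL9 KD, and GPC4 (r = 0.999), at 4.91 and 2.91 FPKM. For ANKRD1 they were FRMD5 (r = 0.999), at 7.39 and 5.74 FPKM, and PROSER1 (r = 0.996), at 8.66 and 6.96 FPKM. AMOTL2 and ANKRD1 correlated with each other at r = 0.916, their control samples standing in a different order. With 6 samples in 2 groups that share libraries, these values describe the likeness of the patterns only.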

How the data were processed

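RNA was isolated from 3 NS control and 3 BCL9 KD flasks of DCIS.COM cells, and libraries were made with a NEBNext Ultra kit. Per the submitters' processing notes, the authors used STAR and HTSeq 0.6.1 with build hg38, and they deposited FPKM per gene together with the gene length in bases, a value in another unit. FPKM multiplied by gene length gave whole reads for 100% of values within a tolerance of 0.1, from which depth was taken. Reads are not independent molecules, so counting error does not cover all of the uncertainty. The methods state a DESeq2 test and 2 replicates per condition, whereas the labels give 3, and a test for counts was not used on FPKM. The log2(FPKM + 0.5) values of genes with a mean of at least 0.5 FPKM were tested with limma 3.58.1 (R 4.3.3, empirical Bayes trend, BCL9 KD minus NS control, no covariate) with Benjamini-Hochberg adjustment over 13745 genes. The added 0.5 FPKM makes differences of low genes smaller. Shares were compared by two-sided exact permutation tests, for which 3 against 3 allows no p below 0.1. Python 3.11.15, pandas 2.3.3, scipy 1.17.1 and matplotlib 3.10.9 were used.

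Named were the 10 genes, BCL9, every called gene of both lists and the 2 largest differences each way in each list, and the 2 genes most like each called Hippo gene. AMOTL1, GADD45A, STK3, STK4 and NF2 are named outside this rule, a choice made with their values known, as are CD37, which overlaps TEAD2, and the untested FAT4, DCHS1 and VGLL1, and markers come from fixed lists. The genes and lists were chosen with earlier results of these data known. The fit was also run on simulated data without a GC bias and with larger changes than those of the Hippo genes. No result given here rests on that run. Alternatives were adding 1 or 0.1 FPKM, requiring a mean of at least 1 FPKM, dropping the filter, quantile normalization, scaling by median of ratios, limma with robust fitting or without trend, protein-coding genes only, a replicate block, voom on recovered reads, a GC correction (loess with a span of 0.3, GC content from GRCh37 transcripts for 98.8% of genes tested), the last 2 with the block, and leaving out each sample. In the fits that leave a sample out, a group of 2 remains. Protein sequences were not analysed here, and 1 marker of the immune list is not reported here.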

Additional observations from a re-analysis of the deposited data

How the results depend on the processing

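Over the 20 alternatives for each of 22 named genes, 364 of 440 values kept their direction and their side of the threshold, 69 lost the call in the same direction, 2 gained it (LATS1 after GC correction at −0.35, adjusted p = 0.0494, and STK38L without NS control replicate 3) and 5 changed sign. All of the sign changes were in uncalled genes, TEAD3 at 0.0078 after GC correction with and without the replicate block and from −0.13 to 0.041 with samples left out, and TEAD2 from −0.12 to 0.011 with samples left out. AMOTL2 was called in 15 of 20 alternatives and ANKRD1 in 14, and all their values were negative. The genes called over the table, the Hippo genes, the other pathway genes and the targets numbered 807, 2, 3 and 7, and with samples left out they ran from 5 to 1712, 0 to 2, 0 to 7 and 0 to 8. With no filter, where 30731 genes entered the fit and the adjustment, they were 142, 1, 1 and 3. With the replicate block all 4 counts were 0, while 3235 genes had an unadjusted p below 0.05, and with GC correction and the block they were 102, 1, 0 and 2. Voom with the block called 379 genes and 1 Hippo gene. Between an NS control and a BCL9 KD sample sharing a replicate number, deviations correlated at −0.147 to −0.00287. Between samples with unlike numbers the correlation was −0.0988 to 0.159, and 0 of 6 samples correlated best with its own number. With 3 samples per group and NS control replicate 1 standing apart, these values cannot decide whether the numbers pair the samples. Shared handling of samples was not tested. The count over the table was 536 with median-of-ratios scaling, 1409 for protein-coding genes only, 1403 with voom and 1557 with GC correction, and 332 with 4 targets without the trend. The causes of these changes in the counts were not tested. With samples left out, the share differences in percentage points ran from −6.78 to −0.65 for TEAD1, 0.498 to 2.55 for TEAD2, 0.32 to 1.98 for TEAD3, −1.14 to 2.25 for TEAD4, −1.63 to −0.995 for WWTR1 and 0.13 to 4.41 for LATS2, with TEAD4 below 0 without NS control replicate 3 or BCL9 KD replicate 3 (−0.123). The Hippo genes with the fewest reads were ANKRD1, TEAD3 and LATS2 (235, 297 and 364 in their lowest sample).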
